A study of Homo sapiens with 5 samples.

Results

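The miRNAs in common use as internal references were followed across 5 blood cell lines. They were picked by probe name from the 654 human miRNA probes of the assay, which gave 6 members: hsa-miR-103, hsa-miR-107, hsa-miR-191, hsa-miR-423-3p, hsa-miR-423-5p and hsa-miR-425. No measured value was part of the rule. Total RNA extracted with Trizol was hybridized to the nCounter human miRNA assay, in which a color-coded reporter is counted for each miRNA with no amplification step. Each line was measured in 1 sample of 100 ng of RNA, so no difference between lines has a replicate check and none was tested. The 5 lines were Meg-01, a megakaryoblastic line; Jurkat, derived from a T-cell leukemia; Raji, derived from a B-cell lymphoma; U937, a monocytic line; and K562, an erythroleukemia line. The labels name no treatment, and each is a transformed line that stands for a lineage only in part. Equal amounts of RNA were compared, so the content of a miRNA per cell was not measured.

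The blood miRNA miR-142-3p was among the 4 highest of the 654 human miRNAs in each of the 5 lines, at 7436 counts in K562 and 32907 in Jurkat. The lymphoid miRNA miR-150 was counted 1030 times in Jurkat and 21 times in Raji, and the latter was below background. The erythroid miRNA miR-451 was above background in K562, at 59 counts, and in Meg-01, at 129 counts. miR-144, also erythroid, was likewise higher in Meg-01, at 981 counts, than in K562, at 216, and was below background in Jurkat, Raji and U937. The myeloid miRNA miR-223 was highest in Meg-01 in raw counts, at 3269, followed by U937 with 2682, K562 with 1684, Jurkat with 732 and Raji with 62, while U937 was highest after scaling to the Positive or the Housekeeping probes. Of 20 measurements of miR-200c, miR-122, miR-1 and miR-133a, which mark epithelium, liver and muscle, 2 were above background, and the counts ran from 12 to 44.

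A reference miRNA serves as the yardstick against which other miRNAs of a sample are expressed, and the use rests on a level that varies little between samples. miR-103 and miR-107 are paralogs that lie inside genes for pantothenate kinases and are known to target the miRNA-processing enzyme Dicer. miR-191 and miR-425 are processed from a common primary transcript, and miR-423-5p and miR-423-3p are the opposite arms of a single hairpin.

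The mature sequences show which of the 6 are related, with the seed, bases 2 to 8, in capitals. They are from RefSeq, assembly GRCh38.p14, with 5 of the 6 matched in the table used here, and miR-425-5p is given by name only. The probe names miR-103, miR-191 and miR-425 carry no arm, and it was assumed that they stand for miR-103a-3p, miR-191-5p and miR-425-5p.
miR-103a-3p: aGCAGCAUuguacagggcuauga
miR-107: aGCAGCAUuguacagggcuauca
miR-191-5p: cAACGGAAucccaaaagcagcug
miR-423-5p: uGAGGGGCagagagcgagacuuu
miR-423-3p: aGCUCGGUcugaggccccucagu

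miR-103a-3p and miR-107 have the same seed and share 22 of 23 bases. The substitution from miR-103a-3p to miR-107 is G22C, counted from 1 at the 5′ end. Whether each of the 2 probes also captures the other paralog was not tested, so the values of both are uncertain to that extent. miR-103a-3p is encoded on the minus strand at chr5:168560904-168560926, within the span of PANK3, and on the plus strand at chr20:3917541-3917563, within the span of PANK2. The count of miR-103 cannot tell these loci apart. miR-107 lies on the minus strand at chr10:89592756-89592778, within PANK1. miR-191-5p lies on the minus strand at chr3:49020672-49020694, where DALRD3 and NDUFAF3 overlap, and the MIR425 and MIR191 hairpins are 383 bases apart. The arms of miR-423 lie on the plus strand at chr17:30117095-30117117 for miR-423-5p and chr17:30117131-30117153 for miR-423-3p, within the span of NSRP1. The seeds of miR-191-5p, miR-423-5p and miR-423-3p differed from each other and from that of the miR-103 family.

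Background was set in each line from its 8 negative control probes, and a miRNA was taken as measured where its raw count was above their mean plus 2 SD. This threshold was 45.9 counts in Raji, 42.1 in Meg-01, 35.02 in Jurkat, 34.9 in U937 and 34.6 in K562. Total human counts were highest in Jurkat, at 130048, followed by Meg-01 with 109731, K562 with 105224, U937 with 94027 and Raji with 66892. Raji thus had both the fewest human counts and the highest threshold, and 111 of the 654 human miRNAs were measured in it, against 178 to 229 in the other lines.

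miR-103 and miR-191 gave the highest counts of the 6. miR-103 was counted 1355 times in Meg-01 (95% exact Poisson interval 1284 to 1429), 1534 times in Jurkat (1458 to 1613), 336 times in Raji (301 to 374), 911 times in U937 (853 to 972) and 472 times in K562 (430 to 517). miR-191 was counted 1315 times in Meg-01 (1245 to 1388), 1589 times in Jurkat (1512 to 1669), 388 times in Raji (350 to 429), 1166 times in U937 (1100 to 1235) and 916 times in K562 (858 to 977). Raji had the lowest raw count of both, and Jurkat the highest. The intervals cover counting error only.

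miR-423-5p gave fewer counts and a smaller raw difference between lines. Its counts were 116 in Meg-01 (95.9 to 139), 198 in Jurkat (171 to 228), 112 in Raji (92.2 to 135), 114 in U937 (94.04 to 137) and 157 in K562 (133 to 184). Meg-01, Raji and U937 were indistinguishable in raw counts, since their intervals overlapped almost fully. miR-103, miR-191 and miR-423-5p were the 3 members measured in all 5 lines.

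The remaining 3 members were below the threshold in at least 1 line. miR-107, the paralog of miR-103, was counted 159 times in Meg-01 (135 to 186), 116 times in Jurkat, 43 times in Raji (31.1 to 57.9), 83 times in U937 and 52 times in K562. miR-425, the cluster partner of miR-191, was counted 64 times in Meg-01, 97 times in Jurkat (78.7 to 118), 43 times in Raji (31.1 to 57.9), 64 times in U937 and 51 times in K562. Both fell below the threshold in Raji. The 3′ arm of miR-423 gave the lowest counts of the 6 except in K562, where miR-107 and miR-425 were lower. It was counted at 39 in Meg-01 (27.7 to 53.3), 64 in Jurkat, 31 in Raji (21.1 to 44.0), 49 in U937 and 65 in K562 (50.2 to 82.8), and it was below the threshold in Meg-01 and Raji.

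**Figure D1:**
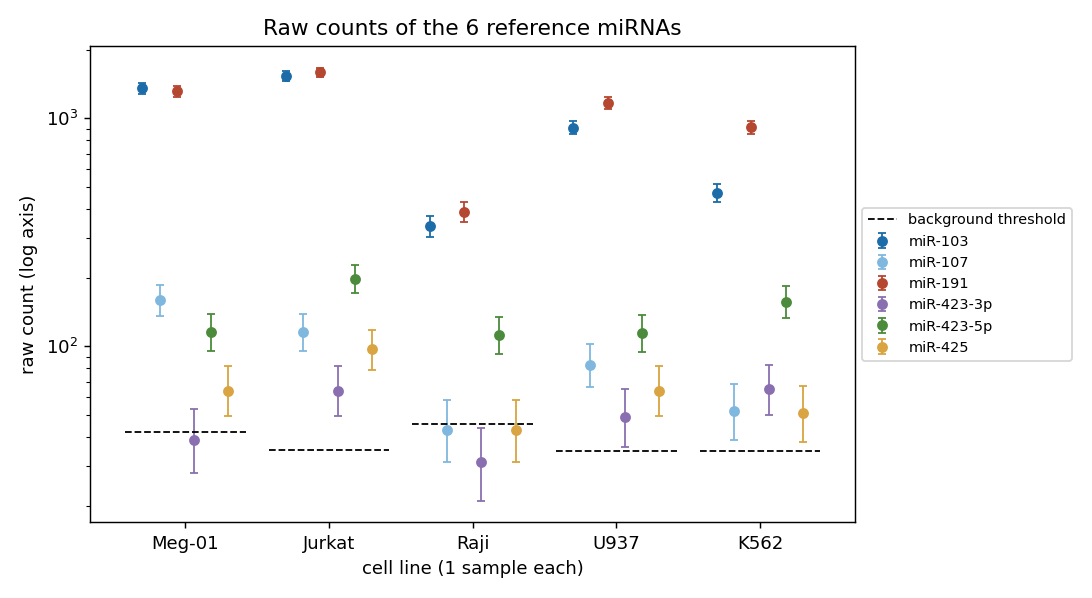
Raw counts of the 6 reference miRNAs in each line on a log axis, with bars for the 95% exact Poisson interval and a dashed line for the background threshold of the line. miR-107 and miR-425 lie below it in Raji, and miR-423-3p in Meg-01 and Raji.

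To compare lines, the mean of the negative controls was subtracted and the result was scaled by each of 3 denominators. These were the total of the human miRNA counts, the geometric mean of the 6 Positive probes, which detect synthetic targets added in known amounts, and the geometric mean of the 5 Housekeeping probes, which detect the mRNAs of RPL19, RPLP0, ACTB, GAPDH and B2M. The highest line exceeded the lowest by 1.94-fold in the total (Jurkat over Raji), by 1.47-fold in the Positive probes (Meg-01 over U937) and by 2.30-fold in the Housekeeping probes (Meg-01 over K562). The denominators therefore ordered the lines differently. Raji stood at 66.1% of the mean total, but at 99.2% of the mean of the Positive and 106% of the mean of the Housekeeping denominator. The 5 Housekeeping mRNAs also varied among themselves, from 1.94-fold for RPL19 to 3.21-fold for B2M, which was lowest in K562. Of the Positive probes, POS_F ran from 20 counts in U937 to 40 in Raji, below the background threshold of every line. POS_E was below the threshold in Raji, at 38 counts, and in U937, at 25.

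**Figure D2:**
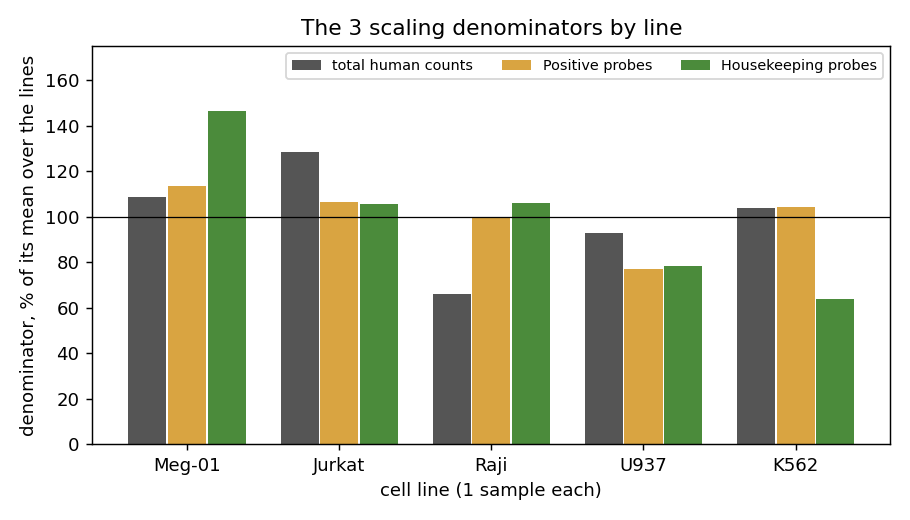
The 3 scaling denominators in each line, as a percentage of the mean over the 5 lines, with the line at 100% for that mean. Raji is low in total human counts only, and Meg-01 is high and K562 low in the Housekeeping probes.

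Scaled to total human counts, miR-423-5p varied least of the 3 members measured in every line and miR-103 most. miR-103 reached 1231 ± 34.1 in Meg-01, 1176 ± 30.5 in Jurkat, 958 ± 32.6 in U937, 473 ± 28.4 in Raji and 434 ± 21.03 in K562 (scaled counts ± SE from counting error, here and below). Meg-01 and Jurkat did not differ beyond this error, nor did Raji and K562, and the highest line was 2.83-fold above the lowest (95% interval 2.54 to 3.16). miR-191 lay at 1232 ± 36.8 in U937, 1219 ± 31.1 in Jurkat, 1194 ± 33.6 in Meg-01, 861 ± 29.2 in K562 and 552 ± 30.4 in Raji, a ratio of 2.23 (1.97 to 2.52). Its upper 3 lines were within counting error of each other, neighbor by neighbor. miR-423-5p lay at 136 ± 11.1 in Jurkat, 134 ± 17.1 in Raji, 132 ± 12.3 in K562, 100.2 ± 11.8 in U937 and 88.2 ± 10.5 in Meg-01, and no line differed from the next beyond counting error. Its ratio of 1.55 had an interval of 1.16 to 2.05. Thus 2 of the 3 measured members passed 2-fold under this scaling, beside 63 of all 88 human miRNAs measured in every line, or 71.6%. The interval of miR-191 included 2-fold. The total was taken before subtraction. With a total of subtracted counts, the ratio of miR-191 was 2.05 (1.81 to 2.32). That of miR-423-5p was then 1.70 (1.21 to 2.39), with Raji as the highest line.

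Scaled to the Positive probes, the spread of miR-103 and miR-191 widened, with lower values in Raji and higher ones in Jurkat and U937. miR-103 lay at 1423 ± 36.9 in Jurkat, 1176 ± 32.6 in Meg-01, 1155 ± 39.3 in U937, 434 ± 21.01 in K562 and 315 ± 18.9 in Raji, and the highest line was 4.51-fold above the lowest (3.97 to 5.13). miR-191 lay at 1486 ± 44.4 in U937, 1475 ± 37.6 in Jurkat, 1141 ± 32.1 in Meg-01, 860 ± 29.2 in K562 and 368 ± 20.3 in Raji, a ratio of 4.04 (3.57 to 4.57). In both, Raji was below each other line beyond counting error. miR-423-5p lay at 165 ± 13.4 in Jurkat, 131 ± 12.3 in K562, 121 ± 14.2 in U937, 89.6 ± 11.4 in Raji and 84.3 ± 10.1 in Meg-01, and its ratio was 1.96 (1.47 to 2.60), on the lower side of 2-fold with an interval across it. Again 2 of the 3 passed 2-fold, beside 65 of 88 human miRNAs, or 73.9%. With only the 4 highest Positive probes, the ratio was 3.94 for miR-103 and 3.50 for miR-191, each below the interval given above. For miR-423-5p it was then 1.76 (1.33 to 2.34).

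Scaled to the Housekeeping probes, miR-423-5p passed 2-fold, though its ratio was still the smallest of the 3. It lay at 214 ± 20.02 in K562, 166 ± 13.5 in Jurkat, 119 ± 14.01 in U937, 84.0 ± 10.7 in Raji and 65.2 ± 7.80 in Meg-01, and the highest line was 3.28-fold above the lowest (2.44 to 4.42). K562 and Meg-01, the lines at the ends of this order, were those with the lowest and the highest Housekeeping counts. miR-103 lay at 1433 ± 37.2 in Jurkat, 1138 ± 38.7 in U937, 910.2 ± 25.2 in Meg-01, 708 ± 34.3 in K562 and 296 ± 17.7 in Raji, with a ratio of 4.85 (4.26 to 5.51). miR-191 lay at 1485 ± 37.8 in Jurkat, 1464 ± 43.8 in U937, 1403 ± 47.6 in K562, 883 ± 24.9 in Meg-01 and 345 ± 19.0 in Raji, with a ratio of 4.31 (3.82 to 4.85). The 3 upper lines of miR-191 were within counting error of their neighbors. Here 3 of the 3 measured members passed 2-fold, beside 78 of 88 human miRNAs, or 88.6%.

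**Figure D3:**
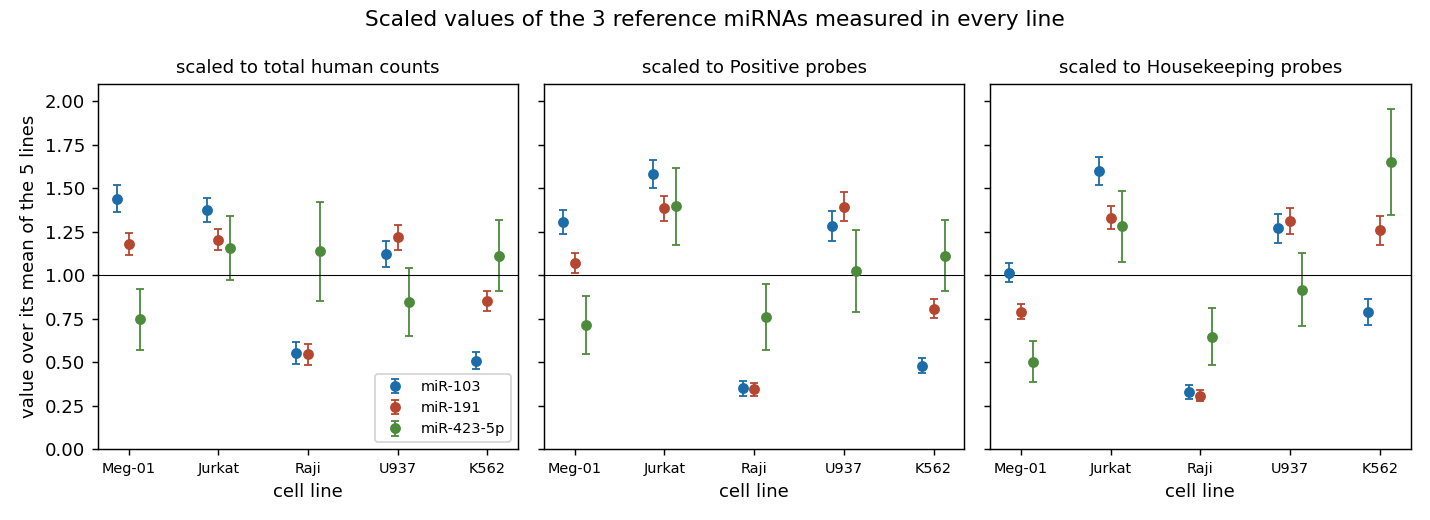
Values of miR-103, miR-191 and miR-423-5p in each line under the 3 scalings, each divided by its mean over the 5 lines, with bars for the 95% interval from counting error. miR-103 and miR-191 are lowest or close to lowest in Raji in each panel, while miR-423-5p in K562 moves from 1 of 3 similar high lines in the first panel to the top in the last.

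The number of members past 2-fold was close to the share among human miRNAs in general and is no result about the members. Their coefficients of variation (CV, the SD over the 5 lines as a percentage of the mean) differed more clearly. With total human counts, the CV was 44.5% for miR-103, 29.6% for miR-191 and 18.9% for miR-423-5p, at ranks 47, 27 and 10 from the lowest among the 88, whose median was 42.1%. With the Positive probes, the CVs were 54.8% for miR-103, 44.0% for miR-191 and 27.9% for miR-423-5p, at ranks 56, 46 and 26, beside a median of 42.04%. With the Housekeeping probes, miR-103 had a CV of 48.0%, miR-191 of 44.5% and miR-423-5p of 46.9%, at ranks 43, 37 and 40, beside a median of 49.5%. miR-423-5p was the least variable of the 3 under total and Positive scaling, but not under Housekeeping scaling, where miR-191 was. The order did not hold without Raji, where the CV of miR-191 was 15.8% against 20.6% for miR-423-5p with total human counts, and 24.2% against 26.5% with the Positive probes. These reversed orders were within counting error (SE 1.55 and 5.70 percentage points for the first pair), as was the order under Housekeeping scaling over the 5 lines (SE 1.07 for miR-191 and 5.28 for miR-423-5p). Under Housekeeping scaling without Raji the gap was beyond it, at 21.8% (SE 1.23) for miR-191 and 45.2% (SE 5.26) for miR-423-5p. Leaving out another line gave both orders under this scaling. miR-191 had the higher CV without K562, at 52.0% against 40.9% for miR-423-5p, and without Meg-01, at 47.2% against 38.8%. It had the lower CV without Jurkat, at 51.0% against 54.9%, and without U937, at 51.3% against 52.8%. With the 100 most abundant miRNAs as denominator, miR-191 was the less variable over the 5 lines. Its CV was 26.7% against 31.3% for miR-423-5p, again within counting error. Counting error alone would give a CV of 10.8% for miR-423-5p and 3.47% for miR-103 under total scaling.

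**Figure D4:**
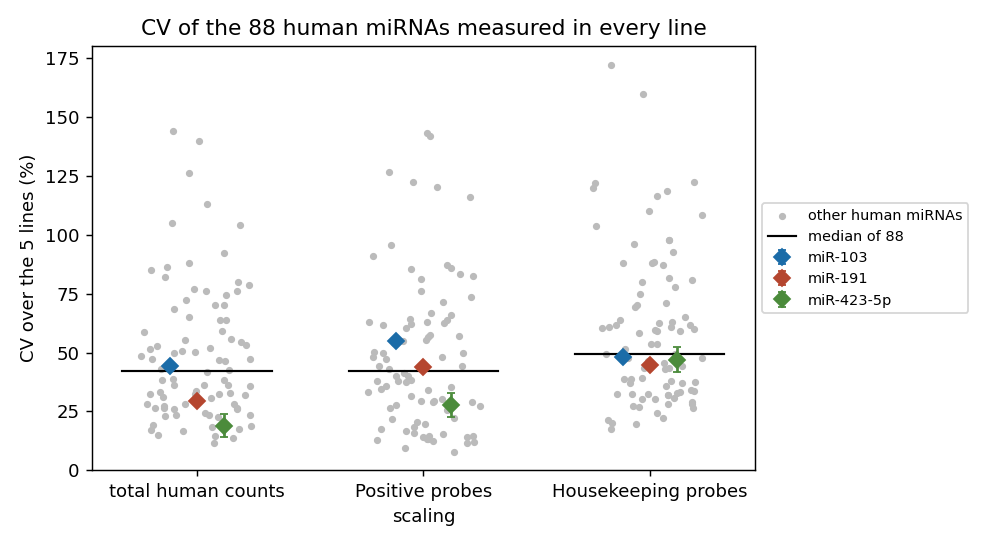
CV over the 5 lines of the 88 human miRNAs measured in every line, by scaling, with diamonds for the reference miRNAs (bars of 1 SE from counting error) and a black line for the median of the 88. miR-423-5p moves from 18.9% under total human counts to 46.9% under the Housekeeping probes.

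Raji decided the call for miR-191. Without Raji, its ratio was 1.43 with total human counts, 1.73 with the Positive probes and 1.68 with the Housekeeping probes, each below 2-fold. The ratio of miR-103 was the same 2.83 with total human counts but fell from 4.51 to 3.28 with the Positive probes and from 4.85 to 2.03 with the Housekeeping probes, where the interval of 1.82 to 2.26 included 2-fold. The side of 2-fold on which miR-423-5p fell depended on the denominator, since a denominator made of the 100 most abundant miRNAs, as their geometric mean, gave a ratio of 2.36 (1.75 to 3.18).

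The miRNAs with the lowest CV were other ones under each scaling. They were miR-140-5p (11.5%), miR-27b (13.6%) and miR-26a (14.4%) with total human counts, miR-664 (7.61%), miR-518f (9.24%) and miR-548g (11.7%) with the Positive probes, and miR-30e (17.4%), miR-30b (19.6%) and miR-519e (19.9%) with the Housekeeping probes. Several of these were weakly counted, with raw counts of 58 to 76 for miR-518f and 37 to 54 for miR-519e, so that a part of each count was background. Except for miR-27b, miR-26a and miR-30b, the CV of each was below that which counting error alone would give (17.7% for miR-140-5p, 12.0% for miR-664), so their order among the lowest was not resolved. miR-103, miR-191 and miR-423-5p were not among these under the 3 scalings, and the other 3 members were not ranked.

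The 8 further miRNAs in common use as references were read in the same way, and 6 of them were measured in every line. Of these 6, 5 passed 2-fold under each of the 3 scalings, beside 71.6%, 73.9% and 88.6% of human miRNAs in general, so the count says nothing particular about them. let-7a ranged from 256 counts in K562 to 2143 in Jurkat and differed 7.28-fold under total scaling. miR-26b, with 56 to 63 counts in the 5 lines, was the 1 that stayed under 2-fold after subtraction, at 1.82 with total human counts, 1.44 with the Positive probes and 1.93 with the Housekeeping probes. Its intervals were wide, 0.957 to 3.46 in the first case and 1.06 to 3.49 in the last, where the ratio without subtraction was 2.04 (1.40 to 2.97). miR-24 and miR-30c were not measured in Raji, at 27 and 39 counts, and reached 1063 counts in Meg-01 and 74 in Jurkat.

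For the members not measured in every line, a line below its threshold was entered at the threshold where that was lower than any measured value, and the ratio is then a lower bound. miR-107 was 4.19-fold higher in Meg-01 than in K562 with total human counts, both measured, and 2.93-fold higher (conditional exact binomial interval 2.13 to 4.09) without subtraction. Over Raji at its threshold, the highest line of miR-107, Meg-01, was at least 5.33-fold higher with the Positive probes and at least 4.40-fold higher with the Housekeeping probes. These bounds hold for values after subtraction only: without it, the highest line of miR-107 was 3.23-fold above Raji (2.30 to 4.64) with the Positive probes and, with Jurkat as the highest, 2.71-fold (1.89 to 3.93) with the Housekeeping probes. miR-423-3p, highest in K562, differed at least 2.15-fold with total human counts, at least 2.24-fold with the Positive probes and at least 4.73-fold with the Housekeeping probes after subtraction. Without it, the ratios were 1.74 (1.15 to 2.66), 2.03 (1.27 to 3.30, with U937 as the highest) and 3.83 (2.53 to 5.85). The intervals with total human counts and the Positive probes included 2-fold. miR-425 was 1.95-fold higher in Jurkat than in K562 with total human counts, both measured, and after subtraction at least 3.05-fold and 3.28-fold higher in Jurkat than in Raji with the Positive and the Housekeeping probes. These 3 miRNAs are in neither class of the counts given above. The bounds take no account of counting error. Without subtraction, the ratio of miR-425 in Jurkat over K562 was 1.54 under total scaling (1.09 to 2.20), and in Jurkat over Raji it was 2.11 (1.46 to 3.09) with the Positive and 2.26 (1.56 to 3.32) with the Housekeeping probes.

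In Jurkat, U937 and K562, where each of the 6 was measured, a comparison added after seeing the data, 2 of the 6 differed over 2-fold with total human counts, 3 with the Positive probes and 1 with the Housekeeping probes. Among the 132 human miRNAs measured in these 3 lines, the shares were 48.5%, 51.5% and 55.3%. miR-103 passed 2-fold under each scaling in this subset, at 2.71, 3.28 and 2.03. The interval of the last, 1.82 to 2.26, included 2-fold, so the 1 member counted with the Housekeeping probes is uncertain. miR-191 had a ratio of 1.43, 1.73 and 1.06, and the last of these went with a CV of 2.94%, the lowest of the 132. Counting error alone would give a CV of 2.98% there, so this rank was not resolved. With total human counts and the Positive probes miR-191 was at ranks 30 and 51 from the lowest. Fewer lines give smaller ratios by construction, and over the 5 lines the ratio of miR-191 under Housekeeping scaling was 4.31.

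The place of a miRNA among the others of its own line does not depend on the scaling. The median of the 88 miRNAs in Raji, as log2 of the value over the geometric mean of the 5 lines, moved from 0.31 with total human counts to -0.25 with the Positive and -0.39 with the Housekeeping probes, and in K562 from -0.10 to -0.08 and 0.58. Relative to that median, miR-103 was at 0.77 in Jurkat, 0.67 in Meg-01, 0.39 in U937, -0.74 in K562 and -1.03 in Raji on the log2 scale. miR-191 was at 0.51 in Jurkat, 0.44 in U937, 0.31 in Meg-01, -0.07 in K562 and -1.12 in Raji. miR-423-5p kept to a narrower range, from -0.39 in Meg-01 to 0.40 in Jurkat, with -0.10 in Raji. Relative to this median, then, miR-103 and miR-191 were lowest in Raji, and miR-423-5p was not. The denominator cancels in these values by construction, so they are no check of the scaling. The 88 miRNAs had to be above the Raji threshold, the highest of the 5, to enter this comparison, which favors miRNAs that are high in Raji.

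Ratios within a line compare related members with no scaling at all. Because probes differ in efficiency, only the change of a ratio between lines was read. The log2 ratio of miR-103 over its paralog miR-107 was 3.27 ± 0.14 in Meg-01, 4.02 ± 0.17 in Jurkat, 3.84 ± 0.22 in U937 and 3.83 ± 0.35 in K562 (± SE from counting error), and at least 3.78 in Raji. Among the 4 lines with both measured, Meg-01 had the lowest ratio, by 0.75 ± 0.23 below Jurkat, which was beyond counting error, and it was also the line with the highest count of miR-107. Without subtraction Meg-01 was still the lowest of these 4 lines, at 3.09 beside 3.18 in K562. Raji, where miR-107 was below the threshold, then lay lower still, at 2.97, so the bound for Raji holds only after subtraction. K562, with fewer counts of miR-107, was not separated from Meg-01 beyond counting error. The SD over the 4 lines was 0.33, and 0.11 without Meg-01.

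Among the lines with both members measured, and after subtraction, the partners of the chromosome 3 cluster and the arms of miR-423 gave ratios without a difference beyond counting error. The log2 ratio of miR-191 over miR-425 was 4.89 ± 0.30 in Meg-01, 4.40 ± 0.20 in Jurkat, 4.73 ± 0.28 in U937 and 4.86 ± 0.36 in K562, and at least 4.004 in Raji, with an SD of 0.23 over the 4 lines. Its range of 0.49 had an SE of 0.36. For miR-423-5p over miR-423-3p the log2 ratio was 2.09 ± 0.31 in Jurkat, 1.73 ± 0.42 in U937 and 1.61 ± 0.30 in K562, at least 2.14 in Meg-01 and at least 1.97 in Raji, with an SD of 0.25 over the 3 measured lines. Without subtraction, the log2 ratio of miR-191 over miR-425 was lower in Raji, at 3.17, than in Jurkat (4.03), K562 (4.17), U937 (4.19) and Meg-01 (4.36). For the arms of miR-423 it was 1.57 in Meg-01 and 1.85 in Raji, the lines given as bounds, and 1.22 in U937, 1.27 in K562 and 1.63 in Jurkat. At these counts a change of the arm ratio of the size of its range, 0.48 with an SE of 0.44, was not detectable.

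**Figure D5:**
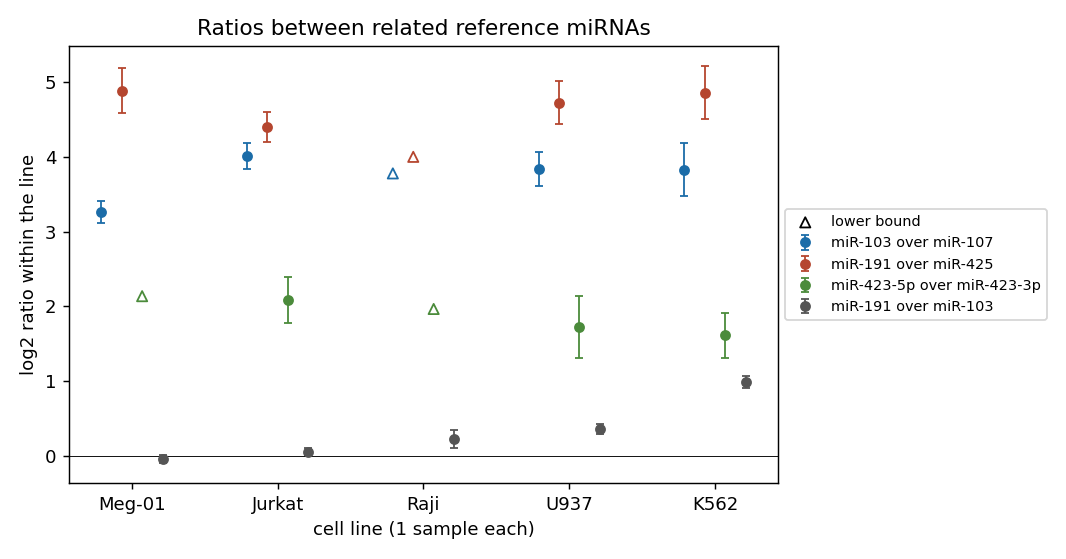
Log2 ratio within each line of related reference miRNAs, with bars of 1 SE from counting error and open triangles for lower bounds where the less abundant miRNA was below threshold. Among lines with both measured, and after subtraction, the ratio of miR-103 over miR-107 is lowest in Meg-01, at 3.27 (without subtraction it is lower in Raji, at 2.97), and that of miR-191 over miR-103 is highest in K562, at 0.99.

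Ratios between unrelated members were measured in all 5 lines and were not tested against those of related ones. miR-191 over miR-103 was at 0.99 ± 0.09 in K562, 0.36 ± 0.07 in U937, 0.22 ± 0.12 in Raji, 0.05 ± 0.05 in Jurkat and -0.04 ± 0.06 in Meg-01 on the log2 scale. The choice between these 2 as the reference would thus move K562 against Meg-01 by 2.04-fold. For miR-103 over miR-423-5p the log2 ratio ran from 1.72 ± 0.15 in K562 to 3.80 ± 0.18 in Meg-01, a 4.22-fold range, and for miR-191 over miR-423-5p from 2.04 ± 0.20 in Raji to 3.76 ± 0.18 in Meg-01, a 3.30-fold range.

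The miRNAs whose pattern was most like that of each measured member were taken as those with the smallest SD, over the 5 lines, of the log2 ratio to it. For miR-103 these were miR-191 (SD 0.41), miR-142-3p (0.44) and miR-93 (0.56), where the median over 87 miRNAs was 0.99. For miR-191 they were miR-93 (0.28), miR-26a (0.36) and miR-103 (0.41), beside a median of 0.88. For miR-423-5p they were miR-320c (0.20), miR-542-3p (0.24) and miR-192 (0.26), beside a median of 0.67, while miR-191 was at place 48 and miR-103 at place 69 of the 87. Seen from the other side, miR-423-5p was at place 29 of the 87 for miR-103 (SD 0.92) and at place 20 for miR-191 (SD 0.70), both below the median. The 3 miRNAs nearest to miR-423-5p were weakly counted, at 95 to 142 for miR-320c, 58 to 79 for miR-542-3p and 108 to 138 for miR-192. Counting error alone would give an SD of 0.17 for miR-191 over miR-423-5p. It was not computed for these 3, so their likeness and order are not resolved.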

How the data were processed

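The authors deposited unprocessed reporter counts of 753 probes per line and a table of signal for the human probes. Each deposited signal above 0 equals the raw count minus a constant per line. This constant is the average of the 8 negative controls of that line in Meg-01, Raji and U937. In Jurkat it is 16.3 against an average of 22.8, and in K562 it is 22.8 against 20.3, equal to the average of Jurkat, so the signals were used only as an alternative. Scaled values are the raw count minus the average of the negative controls of its own line, times the mean denominator over the lines divided by the line's own. Intervals are exact Poisson for counts, conditional exact binomial for ratios without subtraction, and otherwise propagated from the counts and negative controls; the error of the denominators is not included. Alternatives changed the subtraction, the makeup of each denominator, the filter and the lines included. Members and lists were chosen with earlier results of these data known. The text names the 6 members, other common references, the 3 miRNAs of lowest CV per scaling, the 3 most alike to each measured member, and markers of cell type. Calculations used Python 3.11.15, numpy 2.4.6, pandas 2.3.3 and scipy 1.17.1. The Positive and Housekeeping scalings and the ratios under them were tested on simulated counts. Scaling to total human counts, the CV and the ratios within a line were not.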

Additional observations from a re-analysis of the deposited data

How the results depend on the processing

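No paired analysis was possible because each line has 1 sample. Among alternative values of the counts past 2-fold and of the ratios of related members, 101 stayed within 1.5 times the count or within the error of the ratio and 6 did not. This rule keeps a change from 2 to 3 members, so it is a weak check of them. It kept 3 of 3 with the 100 highest miRNAs as denominator. Under Positive scaling it kept 3 of 3 with the deposited signals and with the threshold subtracted. It also kept 2 of 5 without Raji under total scaling, where more members were measured. A mean raw count of at least 30 was also used in place of measurement in every line. Human miRNAs past 2-fold were then 207 of 245 with total human counts, 204 with the Positive and 226 with the Housekeeping probes. This filter also admits miRNAs below the threshold in some lines, and why the number rose was not tested. In Jurkat, U937 and K562 only, a subset chosen after seeing the data, 1 of 6 measured reference miRNAs passed under Housekeeping scaling. The share of human miRNAs past 2-fold there was 55.3%. Over the 5 lines it was 3 of 3 members, beside 88.6% of human miRNAs, so both the members and the lines compared differ. Subtracting the whole threshold in place of the negative control average raised the SD of the log2 ratio of miR-191 over miR-425 from 0.23 to 0.55; the cause was not tested. Leaving out 1 line at a time gave an SD of 0.11 to 0.39 for miR-103 over miR-107, lowest without Meg-01, 0.09 to 0.28 for miR-191 over miR-425, lowest without Jurkat, and 0.08 to 0.34 for miR-423-5p over miR-423-3p, lowest without Jurkat. Of 240 alternative values of the ratio and CV of single members, 67 moved beyond counting error. Without Raji the ratio of miR-191 was 1.43 with total human counts, 1.73 with the Positive and 1.68 with the Housekeeping probes, so it fell below 2-fold in each. miR-103 was at 2.83, 3.28 and 2.03, the last down from 4.85 and with an interval of 1.82 to 2.26. The geometric mean of the 100 highest miRNAs as denominator took miR-423-5p from 1.55 to 2.36, and under Positive scaling it went from 1.96 to 2.03 with the deposited signals and 2.36 with the threshold subtracted. Counts under about 50, close to the thresholds, limit miR-107, miR-425 and miR-423-3p.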
